A study of Canis lupus familiaris with 6 samples.

Results

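The genes of ISG15 conjugation were followed in dog neural retina lying over a xenograft and in retina of the same eye without graft. The 6 genes, ISG15, UBA7, UBE2L6, HERC6, USP18 and RNF213, were taken by name, and all 6 were present among the 34981 gene names measured in every library. The host animals were dogs with normal retinas (genotype normal or wild-type) under immunosuppression. They received fragments of human retinal organoids under the retina. They had been grown from a CRX-tdTomato reporter line of WA09, human embryonic stem cells that are an established line. After 3 days, a 5 mm punch of neural retina overlying the graft and a 5 mm control punch taken from the same retina away from the graft were dissociated and sequenced as droplet-based single-cell RNA libraries. This was done in 3 experiments named LG5, RC726 and RC724, which gave 3 libraries over the graft and 3 control libraries. The sources used here do not state that each experiment was a different animal, so the p-values measure the spread between experiments. edgeR estimates that spread largely from all genes together.

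ISG15 is a small protein of the ubiquitin family that cells attach to other proteins after interferon signalling. UBA7 activates it, UBE2L6 carries it, and a ligase of the HERC family transfers it to its targets. In mouse that ligase is HERC6, and in human cells it is HERC5. USP18 removes ISG15 from its targets and also restrains signalling at the type I interferon receptor, while RNF213 is a very large ring-finger protein that in human cells binds proteins carrying ISG15.

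Barcodes were put into cell classes by marker genes alone, and none of the 6 genes was a marker. The kept barcodes numbered 23859, 11283 and 9256 over the graft (LG5, RC726 and RC724, in this order throughout) and 17904, 9887 and 8552 in control, and library pairs shared at most 0.677% of the barcodes of the smaller one. Rods by this gate held 5413 to 7403 barcodes per library, with a median of 879, 1696 and 1833.5 UMIs (unique molecule counts) over the graft and 840, 1584 and 1592 UMIs in control. All 14 rod markers were detected in rods of every library, but they took 235, 226 and 162 of 10000 rod UMIs over the graft against 412, 284 and 279 in control, so the rods over the graft had the lower marker level in each experiment. Its part in the results was not tested. A level below is in CPM, the UMIs of a gene per 1000000 UMIs summed over all barcodes of a class in a library. The interval beside a fold is a 95% exact interval that covers counting error only.

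In rods, all 6 genes rose over the graft in all 3 experiments. ISG15 stood at 1027, 102 and 119 CPM in rods over the graft, against 8.43, 9.14 and 1.31 CPM in control rods. LG5 was far above the other libraries over the graft, and the groups did not overlap. The rods over the graft thus held 122 times (94.8 to 159), 11.2 times (9.40 to 13.3) and 90.6 times (53.9 to 166) the ISG15 level of their own control. The fitted log2 change was 5.35 ± 0.47 (SE, 3 pairs, edgeR quasi-likelihood test, adjusted p = 2.5e-06). In rods edgeR had 2 residual and a median of 12.3 prior degrees of freedom. The SE and p thus rest mostly on a spread shared with other genes, and the SE is not the spread of the 3 folds.

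UBA7, the enzyme that activates ISG15, was scarce. It had 103, 29 and 55 UMIs in rods over the graft and 1, 2 and 2 UMIs in control rods. That is 12.4, 1.55 and 3.58 CPM over the graft against 0.138, 0.128 and 0.188 CPM in control, with no overlap. The folds of 89.9 (15.8 to 3587), 12.2 (3.08 to 105) and 19.1 (5.04 to 161) are therefore loosely bounded by so few control molecules. The fitted log2 change was 4.73 ± 0.49 (edgeR adjusted p = 1.4e-05).

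UBE2L6, the conjugating enzyme, reached 558, 85.3 and 158 CPM in rods over the graft, against 32.2, 18.7 and 19.7 CPM in control rods. The lowest value over the graft was above the highest control value, and LG5 was again the highest. The folds were 17.3, 4.57 and 8.01, and the fitted log2 change was 3.08 ± 0.24 (edgeR adjusted p = 1e-06).

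HERC6, the ISG15 ligase of mouse, did not follow the same order of levels between experiments. It stood at 482, 315 and 556 CPM in rods over the graft, against 32.9, 78.1 and 77.6 CPM in control rods. RC724 was the highest over the graft and LG5 the lowest in control, and the groups did not overlap. The folds were 14.6 (12.8 to 16.8), 4.04 (3.79 to 4.30) and 7.17 (6.67 to 7.71), and the fitted log2 change was 2.85 ± 0.24 (edgeR adjusted p = 1.7e-06). HERC5 lies next to HERC6 in the genome and is similar to it in sequence, so reads could be divided between both genes. HERC5 was at 49.97, 16.9 and 21.2 CPM in rods over the graft against 3.04, 14.6 and 20.1 CPM in control, with a fitted log2 change of 1.04 ± 0.44 that did not pass the threshold (edgeR adjusted p = 0.11).

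USP18, the enzyme that takes ISG15 off again, was at 167, 78.9 and 156 CPM in rods over the graft, against 16.6, 25.04 and 27.7 CPM in control rods. Its fitted log2 change of 2.43 ± 0.21 was the smallest of the 6 in rods (edgeR adjusted p = 2.3e-06). RNF213 was at 396, 135 and 219 CPM in rods over the graft, against 8.16, 17.8 and 13.7 CPM in control rods. The groups overlapped for neither gene. RNF213 had folds of 48.5, 7.60 and 15.996 and a fitted log2 change of 4.03 ± 0.32 (edgeR adjusted p = 9.4e-07).

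Of the 15784 genes tested in rods, 10.4% were called higher over the graft at the same threshold, against 6 of the 6 genes. All 3 libraries over the graft lay above all 3 controls for 4.49% of tested genes, and for each of the 6. The median log2 change of the 6 genes was 3.55, beside 0.01 over all genes tested. For every one of the 6, the fold was largest in LG5, then RC724, then RC726, a ranking in which the genes share their libraries. Clustering placed part of the rods of both punches apart in LG5 and RC726. In LG5, 1 rod cluster had 1664 barcodes over the graft against 125 in control, and 1 of RC726 had 997 over the graft against 224 in control. Both had HERC6 and RNF213 among their leading genes. In RC724, the rod cluster led by VMO1, which also led those clusters, held 1594 over the graft against 844 in control. Neither HERC6 nor RNF213 was among its leading genes. The RC726 punches were counted with different versions of Cell Ranger, and the part of this in the RC726 folds was not tested. Without the block that pairs the punches of an experiment, no gene passed the threshold in rods or in any other class. All 6 calls in rods held without each experiment in turn, the ISG15 log2 change then lying between 4.40 (without LG5) and 6.72 (without RC726). Free RNA in the droplets was estimated from Müller markers in rods relative to the whole punch. It was 18.7%, 5.26% and 3.83% of rod UMIs over the graft and 12.7%, 6.28% and 4.33% in control. Control punches held ISG15 at 48.4, 36.8 and 33.0 CPM. By this estimate free RNA can make up part of the low ISG15 level in control rods, most of it in LG5 and all of it in RC724. The part of free RNA in the folds was not tested. With the estimate subtracted, all 6 genes were still called higher in rods.

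**Figure D1:**
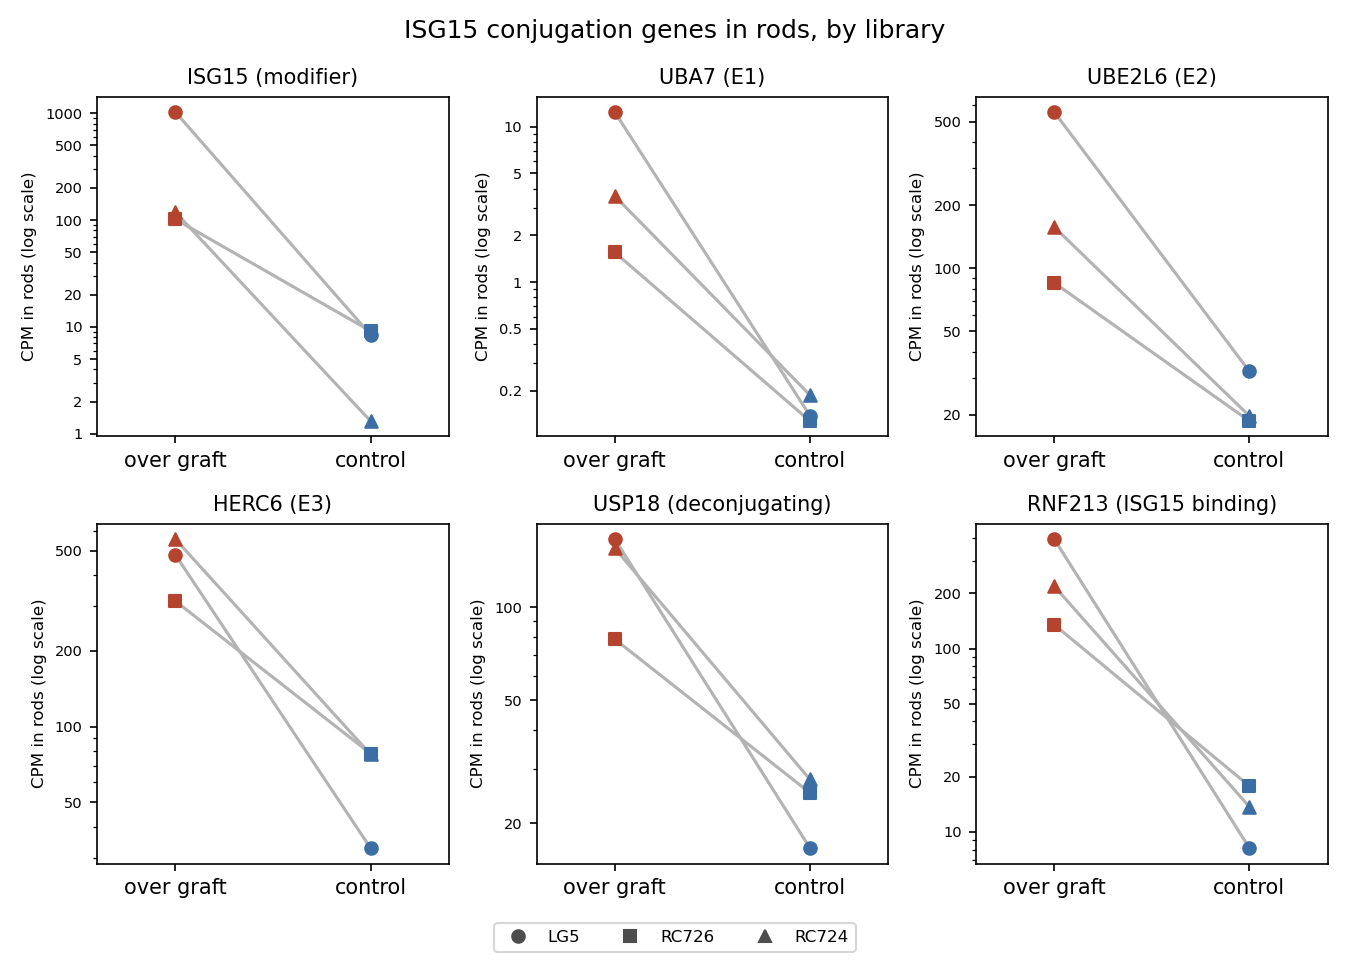
Level of each of the 6 genes in rods (CPM, log scale), over the graft on the left and in control on the right of each panel. Each point is a library, its shape gives the experiment, and a line joins both punches of an experiment; every control point is below its partner over the graft, with ISG15 at 102 to 1027 CPM over the graft and 1.31 to 9.14 CPM in control.

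The share of rods with at least 1 UMI of a gene was compared after each barcode was thinned to 1000 UMIs, since deeper barcodes show more genes. This kept 2689, 6460 and 5274 of 6508, 7403 and 6274 rods over the graft. In control it kept 2342, 6076 and 4388 of 5918, 7097 and 5413 rods. The LG5 shares at this depth therefore describe its deeper rods, which were the minority in both punches. ISG15 was then found in 53.5%, 6.19% and 7.89% of rods over the graft, against 0.598%, 0.675% and 0.160% of control rods. Without thinning the shares were 52.5%, 11.2% and 14.5% over the graft and 0.794%, 1.23% and 0.259% in control. At 500 UMIs per barcode they were 35.6%, 3.54% and 4.14% over the graft against 0.287%, 0.296% and 0.0924% in control, so the share depends on depth, with LG5 the highest library in each form.

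HERC6 was found more evenly. It was present in 35.6%, 21.7% and 38.2% of thinned rods over the graft, against 2.78%, 7.09% and 7.20% in control. UBE2L6 was found in 40.05%, 6.87% and 12.2% of thinned rods over the graft against 3.20%, 1.70% and 1.75% in control. RNF213 was found in 29.9%, 9.91% and 16.4% over the graft against 0.939%, 1.73% and 1.23% in control. For each of these genes the lowest share over the graft was above the highest control share.

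USP18 was present in 15.7%, 6.58% and 14.05% of thinned rods over the graft and 1.49%, 2.29% and 2.73% of control rods. UBA7 reached only 1.34%, 0.155% and 0.360% over the graft, against 0%, 0.0329% and 0% in control. With 3 pairs, the smallest two-sided p of an exact sign-flip test on these shares is 0.25, so no share difference can pass 0.05. No class of these punches is known to lack the 6 genes, so no background share from such a class is given.

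Rods with molecules of several of the 6 genes were more frequent over the graft than in control. These shares depend on the shares of the single genes, and joint expression was not tested. Among rods with at least 1000 UMIs, thinned to that depth, 55.2% of LG5 rods over the graft had molecules of 2 or more of the 6 genes. In LG5 control rods the share was 0.512%. In RC726 the shares were 11.4% over the graft and 1.12% in control, and in RC724 they were 22.8% over the graft and 0.615% in control. Molecules of 3 or more genes were seen in 30.3%, 2.86% and 7.15% of rods over the graft, against 0%, 0.148% and 0% of control rods. At least 1 of the genes was seen in 79.1%, 36.5% and 57.5% of rods over the graft, so in RC726 most rods over the graft showed none of the 6 at this depth, as did most control rods in every experiment (8.50%, 12.2% and 12.5% with 1 or more).

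**Figure D2:**
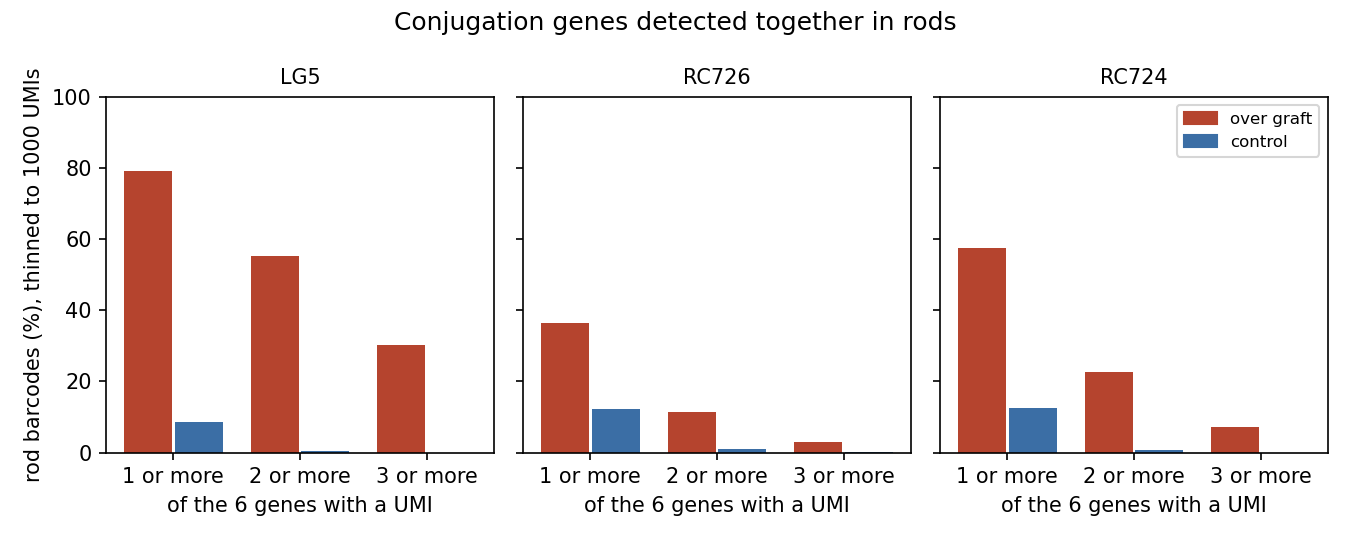
Share of rod barcodes, thinned to 1000 UMIs, with UMIs of 1 or more, 2 or more and 3 or more of the 6 genes, over the graft and in control, in each experiment. Rods with 2 or more genes made up 55.2%, 11.4% and 22.8% over the graft and at most 1.12% in control; the bars have no replicate error because each is 1 library.

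Within the rods over the graft, those with an ISG15 molecule had the other genes more often than those without. HERC6 was found in 42.8%, 36.25% and 52.4% of ISG15-positive rods, against 27.3%, 20.8% and 36.9% of ISG15-negative rods of the same libraries. UBE2L6 was found in 50.6%, 20.25% and 22.1% of ISG15-positive rods against 27.9%, 5.99% and 11.3% of ISG15-negative rods. RNF213 was found in 38.9%, 25.75% and 32.5% of ISG15-positive rods against 19.6%, 8.86% and 15.05% of ISG15-negative rods. The order was the same in 3 of 3 libraries for each gene, and it is a description of barcodes at equal depth, not a test over samples. HERC6 was thus found in at least 20.8% of the rods over the graft that showed no ISG15 molecule.

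The classes were also ordered in control retina, which came from the grafted eye and not from an untreated one. ISG15 averaged 90.1 ± 24.8 CPM in control Müller glia (SD, n = 3 libraries), the supporting glia of the retina, followed by 14.6 ± 13.6 in amacrine, 14.3 ± 4.5 in horizontal and 8.37 ± 2.51 in bipolar cells, 6.29 ± 4.33 in rods and 2.31 ± 3.04 in cones. The Müller range did not overlap that of the next class, while rods overlapped bipolar cells and cones. UBA7 and UBE2L6 were also highest in control Müller glia without overlap, at 2.63 ± 0.23 CPM and 76.7 ± 12.9 CPM. RNF213 was highest there too, at 41.9 ± 9.72 CPM, but its range overlapped that of amacrine cells.

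HERC6 and USP18 differed from the other genes in this. In control, HERC6 was highest in rods at 62.9 ± 26.0 CPM and USP18 was highest in rods at 23.1 ± 5.8 CPM, both overlapping Müller glia (55.8 ± 25.8 and 19.96 ± 0.34 CPM). Over the graft, rods had the highest mean of all 6 genes, but not the highest level in every library. In RC726 over the graft, Müller glia stood above rods for ISG15 (130 against 102 CPM), UBA7 (2.48 against 1.55 CPM) and UBE2L6 (87.2 against 85.3 CPM). In LG5 and RC724 rods were above Müller glia for these genes. For HERC6 the rods stood clear of the next class, with 451 ± 123 CPM in rods and 131 ± 126 CPM in cones over the graft. For the other 5 genes the rod range overlapped that of the next class.

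**Figure D3:**
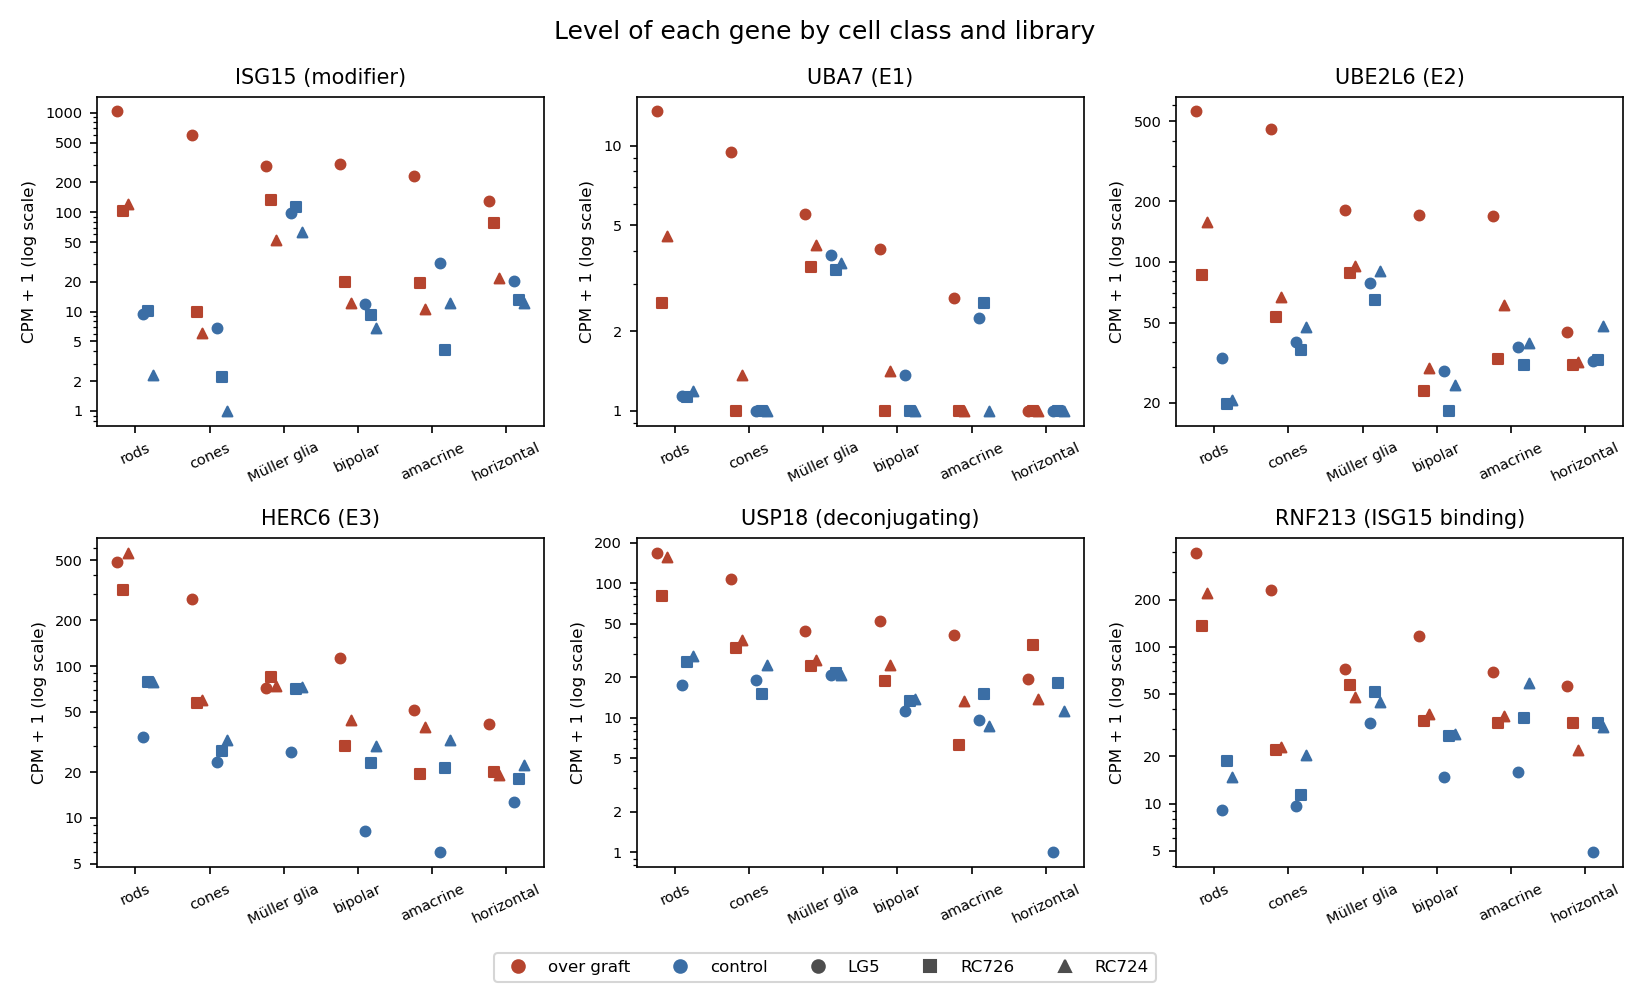
Level of each gene by cell class (CPM + 1, log scale), with the libraries over the graft left of the control libraries in each class and the experiment given by shape. Rods are higher over the graft for all 6 genes, Müller glia overlap between the groups for most genes, and the LG5 library over the graft (circle) is the highest of its group in cones, bipolar and amacrine cells.

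In cones, the 5 genes that could be tested rose, with LG5 far above the other experiments. ISG15 was at 595, 8.96 and 5.13 CPM in cones over the graft, against 5.76, 1.17 and 0 CPM in control cones. These came from 1195, 32 and 14 UMIs over the graft and 8, 4 and 0 UMIs in control, and the groups overlapped because the RC724 cones over the graft were below the LG5 control cones. The fold was 103 (52.3 to 240) in LG5, 7.63 (2.71 to 29.7) in RC726 and at least 4.75 in RC724, the last against a floor of 3 counts in the control library. The fitted log2 change of ISG15 in cones was 5.85 ± 0.43 (edgeR adjusted p = 1.5e-06).

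HERC6 stood at 276, 56.5 and 59.0 CPM in cones over the graft, against 22.3, 26.7 and 31.7 CPM in control cones, without overlap. USP18 was at 107, 32.2 and 36.7 CPM over the graft against 18.0, 14.1 and 23.8 CPM in control, also without overlap. Their log2 changes were 1.71 ± 0.33 (edgeR adjusted p = 0.0063) and 1.35 ± 0.25 (edgeR adjusted p = 0.0051).

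UBE2L6 was at 456, 52.3 and 65.6 CPM in cones over the graft and 38.9, 35.5 and 46.4 CPM in control cones. RNF213 was at 230, 21.0 and 22.005 CPM over the graft and 8.64, 10.3 and 19.4 CPM in control. Both changes were carried mainly by LG5, and their log2 changes of 1.43 ± 0.38 and 1.81 ± 0.49 were just past the threshold (edgeR adjusted p = 0.047 and 0.048). UBA7 had 17, 0 and 1 UMIs in cones over the graft and none in control cones, and was too low to be tested.

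Thus 5 of the 5 tested genes were called higher in cones, where 2.89% of 11671 genes were. All 3 libraries over the graft lay above all 3 controls for 4 of the 5 in cones, against 3.03% of the genes tested there. Without LG5, ISG15, HERC6 and USP18 stayed past the threshold in cones (log2 changes 3.41, 0.96 and 0.87), and UBE2L6 and RNF213 did not (0.50 and 0.56, edgeR adjusted p = 0.081 and 0.29). Without RC724, ISG15 and USP18 stayed and the other 3 did not. UBE2L6 and RNF213 also missed the threshold with library size only, with cells named by clusters, with stricter barcodes and with high Scrublet scores removed (3 of the 5 called in each), and DESeq2 called only ISG15 and USP18 of the 5.

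Free RNA in the droplets was high in the LG5 cones. An estimate from the level of 4 rod genes in the class relative to the whole punch put it at 71.6%, 18.1% and 13.4% of cone UMIs over the graft, against 36.1%, 12.1% and 12.4% in control. Cone markers took 108, 194 and 123 of 10000 cone UMIs over the graft and 269, 241 and 211 in control. In the LG5 cones over the graft ISG15 was at 57.9%, HERC6 at 57.3% and UBE2L6 at 81.7% of the level in rods of that library. With the estimated free RNA subtracted, none of the 4 genes then testable in cones passed the threshold, nor did any other gene.

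In Müller glia, none of the 6 genes passed the threshold. ISG15 was at 292, 130 and 51.2 CPM in Müller glia over the graft, against 97.1, 111 and 62.5 CPM in control Müller glia. It was 3.01 times its control level in LG5, 1.18 times in RC726 and 0.820 times (0.762 to 0.883) in RC724, so the groups overlapped and the direction differed between experiments. The fitted log2 change was 0.46 ± 0.30 (edgeR adjusted p = 0.52).

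The enzymes and RNF213 were closer to control in RC724 than in LG5. UBE2L6 stood at 181, 87.2 and 94.5 CPM in Müller glia over the graft and 77.2, 63.5 and 89.2 CPM in control, HERC6 at 70.5, 84.1 and 73.2 CPM over the graft and 26.1, 69.4 and 72.0 CPM in control. RNF213 was at 71.1, 55.8 and 46.7 CPM over the graft and 31.4, 50.7 and 43.5 CPM in control. In LG5 these 3 genes stood at 2.26 to 2.71 times their control level, and in RC724 at 1.02 to 1.07 times.

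USP18 was at 42.7, 23.3 and 25.6 CPM in Müller glia over the graft and 19.9, 20.3 and 19.7 CPM in control, without overlap. UBA7 was at 4.53, 2.48 and 3.23 CPM over the graft and 2.87, 2.41 and 2.61 CPM in control. The log2 changes of the 6 genes lay between 0.30 and 0.54, with edgeR adjusted p between 0.23 and 0.61, while 0.811% of genes tested in Müller glia were called higher. The Müller gate also held barcodes that clustering named astrocytes, 710, 93 and 173 over the graft and 313, 38 and 99 in control. With cells named by clusters none of the 6 passed the threshold either. Different clusters held many of the Müller barcodes of both punches. In LG5, a cluster led by PI3 and TIMP1 had 2399 barcodes over the graft against 91 in control, and one led by ADAMTS19 and GLUL had 42 over the graft and 1614 in control. In RC724, a cluster led by NPVF and GLUL had 1016 over the graft and 157 in control, and one led by CYP24A1 and ALDH1A1 had 2 over the graft and 783 in control. Without a filter on low counts, 5 of the 6 passed the threshold, in a fit where edgeR took all genes to vary alike.

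In bipolar cells, the interneurons that receive photoreceptor input, none of 5 tested genes passed the threshold. ISG15 was at 305, 18.8 and 11.3 CPM in bipolar cells over the graft, against 10.9, 8.32 and 5.89 CPM in control bipolar cells. Every library over the graft was above every control library, yet the fold was 28.01 in LG5 against 2.26 and 1.92 in the other experiments. The log2 change of 2.59 ± 0.54 missed the threshold (edgeR adjusted p = 0.087).

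USP18 was at 51.4, 17.7 and 23.5 CPM in bipolar cells over the graft and 10.2, 12.3 and 12.7 CPM in control, with a fitted log2 change of 1.17 ± 0.26 (edgeR adjusted p = 0.098). HERC6 was at 113, 29.0 and 43.0 CPM over the graft and 7.27, 21.997 and 28.7 CPM in control, UBE2L6 at 170, 21.8 and 28.8 CPM over the graft and 27.6, 17.2 and 23.4 CPM in control. RNF213 was at 116, 32.6 and 36.0 CPM over the graft and 13.8, 26.0 and 26.9 CPM in control. In each case LG5 was far above the other libraries.

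Among 12827 genes, 0.327% were called higher in bipolar cells. Without RC724, 5 of the 5 genes passed the threshold in bipolar cells, in a fit with 1 residual degree of freedom where edgeR took all genes to vary alike, so those p-values rest on a spread shared by all genes. In LG5 bipolar cells over the graft ISG15 stood at 29.7% of the level in rods of the same library, and free RNA was estimated at 52.3%, 7.64% and 14.6% of bipolar UMIs over the graft and 23.3%, 5.75% and 12.1% in control. With the estimated free RNA subtracted, no gene passed the threshold in bipolar cells.

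In amacrine cells, the inhibitory interneurons, ISG15 was the only one of 5 tested genes past the threshold, where 0.243% of 10712 genes were called higher. It was at 229, 18.5 and 9.63 CPM in amacrine cells over the graft, against 29.6, 3.12 and 11.1 CPM in control amacrine cells, so the groups overlapped and RC724 showed no rise. The log2 change was 2.12 ± 0.40 (edgeR adjusted p = 0.019), and without LG5 it was 0.67 (edgeR adjusted p = 0.91). ISG15 also missed the threshold with DESeq2 (log2 change 1.77, adjusted p = 0.9998), with cells named by clusters (1.93, edgeR adjusted p = 0.10) and with free RNA subtracted (1.58, edgeR adjusted p = 0.33). UBE2L6 was at 168, 31.8 and 59.8 CPM over the graft and 37.0, 29.7 and 38.6 CPM in control, and its log2 change of 1.13 ± 0.28 missed the threshold (edgeR adjusted p = 0.11). HERC6, USP18 and RNF213 had log2 changes of 0.92, 0.90 and 0.30, none past the threshold, and without RC726 HERC6 and UBE2L6 passed it.

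Horizontal cells, with 37 to 101 barcodes per library, allowed only 2 of the genes to be tested. UBE2L6 was at 44.1, 29.7 and 30.8 CPM in horizontal cells over the graft and 31.1, 31.5 and 47.0 CPM in control, with a fitted log2 change of -0.23 ± 0.31. RNF213 was at 55.1, 31.8 and 20.8 CPM over the graft and 3.88, 31.5 and 29.6 CPM in control, with a fitted log2 change of 0.26 ± 0.43. Neither passed the threshold, and 0.0289% of tested genes were called higher. ISG15 had 35, 36 and 23 UMIs in horizontal cells over the graft and 5, 5 and 11 UMIs in control, or 129, 76.3 and 20.8 CPM against 19.4, 12.1 and 11.2 CPM, without overlap. It did not pass the filter on low counts with all 3 experiments, and it was tested when 1 experiment was left out. It passed the threshold without RC724 (log2 change 2.65, edgeR adjusted p = 0.035) and missed it without LG5 (1.69, 0.065) and without RC726 (1.72, 0.37). With cells named by clusters it was tested with all 3 experiments and missed the threshold (1.87, edgeR adjusted p = 0.37). UBA7 had no UMI in any of the 6 horizontal sums.

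Microglia and macrophages by the gate did not reach 20 barcodes in every library and were not tested. In LG5 the gate found 734 such barcodes over the graft and 198 in the control punch, with ISG15 at 105 CPM over the graft (223 UMIs) and 11.7 CPM in control (5 UMIs), UBE2L6 at 122 CPM over the graft against 56.3 CPM in control, and HERC6 at 49.7 CPM over the graft against 0 CPM in control. These are values of 1 library per group with no replicate check. Microglia markers took 0.589, 0.0423 and 0.0560 of 10000 UMIs in rods over the graft and 0.200, 0.0268 and 0.0450 in control rods. The gate used these markers to name barcodes, so low values in rods were set in part by the gate. They cannot test for microglial RNA in rods.

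**Figure D4:**
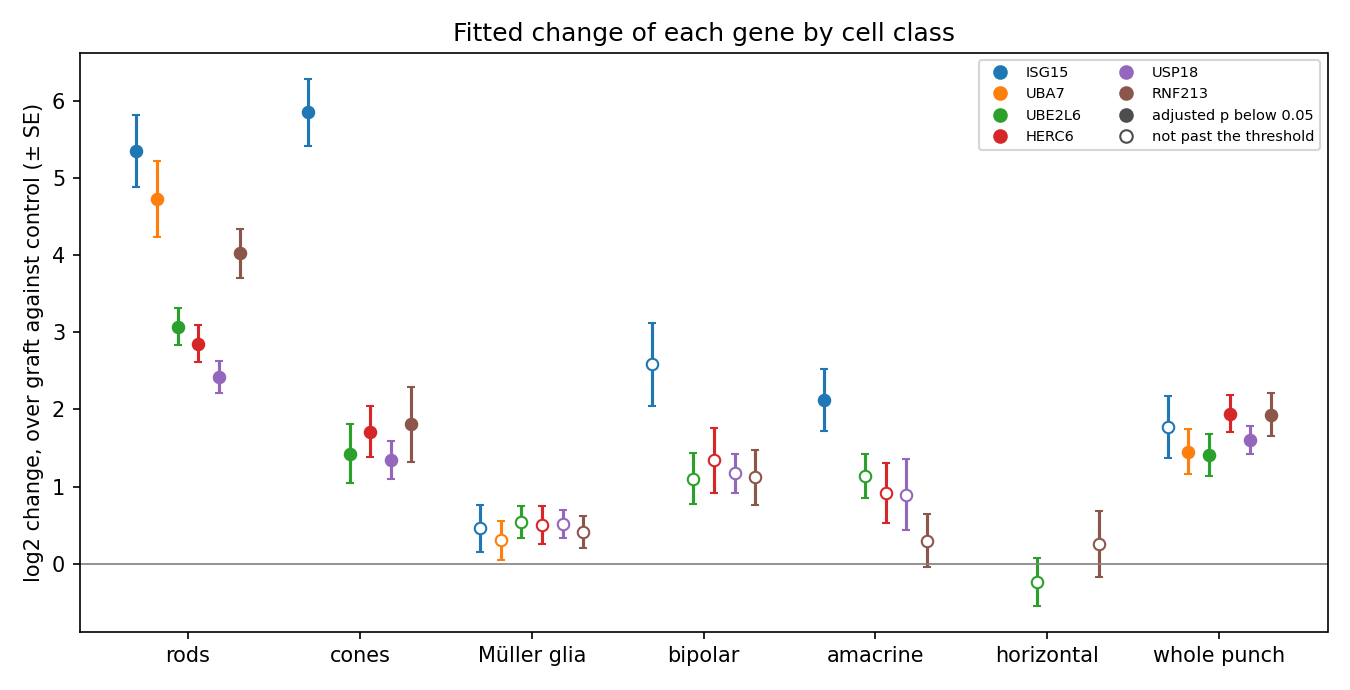
Fitted log2 change of each gene over the graft against control (± SE, 3 pairs) by cell class and in the whole punch; filled points passed the threshold of adjusted p below 0.05. Rods hold 6 filled points between 2.43 and 5.35, cones 5, amacrine cells 1 and Müller glia none, and a gene too low to be tested in a class has no point.

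Whether the change over the graft differed between rods and another class was tested directly, in a fit of both classes with a term for each library. Against Müller glia, all 6 genes changed more in rods, by log2 differences between 1.95 (USP18) and 4.76 (ISG15) with edgeR adjusted p from 7.4e-08 to 9.7e-05, where 5.43% of tested genes changed more in rods. Against bipolar cells, 5 of 6 did (3.45% of tested genes), against amacrine cells 5 of 5 (2.40%) and against horizontal cells 4 of 5 (1.31%), where USP18 did not pass (edgeR adjusted p = 0.29). The ISG15 difference was 3.02, 4.04 and 3.13 on the log2 scale against bipolar, amacrine and horizontal cells.

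Cones were the class nearest to rods. UBE2L6, HERC6, USP18 and RNF213 changed more in rods than in cones, by 1.58 ± 0.24, 1.09 ± 0.22, 1.05 ± 0.23 and 2.37 ± 0.37 on the log2 scale (edgeR adjusted p = 0.0018, 0.012, 0.018 and 0.0020), where 1.59% of tested genes did. The ISG15 difference between rods and cones was 0.32 ± 0.45 (edgeR adjusted p = 0.79), with a 95% interval of -0.63 to 1.27. With the estimated free RNA subtracted, none of these 4 differences passed the threshold, nor did any of the 5 between rods and bipolar cells. The differences themselves were then 1.62 ± 0.50, 1.32 ± 0.47, 1.14 ± 0.35 and 2.95 ± 0.84 against cones (edgeR adjusted p from 0.40 to 0.49). They were 1.69 to 3.65 against bipolar cells, with edgeR adjusted p = 0.054 for UBE2L6, USP18 and RNF213. The subtraction takes the largest relative part from levels below that of the whole punch, so it can itself enlarge a difference. These sizes therefore do not show that free RNA had no part. The ISG15 difference between rods and cones turned in sign. With the class as a main effect and no term for class in each experiment, at most 1 gene passed against any class. Without RC724, 3 of the genes passed against cones, 3 against amacrine and 2 against horizontal cells.

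The sum over all kept barcodes of a punch does not depend on cell naming. ISG15 was at 432, 92.8 and 60.2 CPM in the punches over the graft, against 48.4, 36.8 and 33.0 CPM in control punches, without overlap. Its log2 change of 1.77 ± 0.41 missed the threshold (edgeR adjusted p = 0.059) and passed it without LG5 (edgeR adjusted p = 0.020). HERC6 was at 164, 161 and 198 CPM in the punches over the graft and 24.8, 61.0 and 60.4 CPM in control, with a fitted log2 change of 1.94 ± 0.24 (edgeR adjusted p = 0.016).

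RNF213 (1.93 ± 0.28, edgeR adjusted p = 0.022), USP18 (1.60 ± 0.18, 0.015), UBA7 (1.45 ± 0.29, 0.044) and UBE2L6 (1.41 ± 0.27, 0.040) also rose on the log2 scale in the whole punch. Thus 5 of 6 genes were called higher, where 2.47% of 21645 genes were. UBA7 missed the threshold without LG5 (edgeR adjusted p = 0.073) and without RC726. In such sums, more cells of a class and more RNA per cell cannot be told apart, and rods made up 27.3%, 65.6% and 67.8% of kept barcodes over the graft and 33.1%, 71.8% and 63.3% in control.

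Rods held a larger part of the ISG15 molecules of the punch over the graft than in control. They held 42.8%, 39.1% and 50.9% of the ISG15 UMIs of the punch over the graft, against 3.65%, 10.0% and 0.830% in control. Müller glia held 27.6%, 47.5% and 40.2% over the graft, against 64.9%, 80.7% and 85.1% in control. The groups did not overlap for either class. The number of ISG15 UMIs in Müller glia was not lower, at 5480, 2312 and 1442 over the graft against 1084, 1148 and 1436 in control. In control, ISG15 transcripts of the retina were therefore mostly counted in Müller glia, and over the graft rods and Müller glia held comparable parts.

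Other genes of the pathway and its relatives were read from lists. Over all 15784 genes tested in rods, 1645 (10.4%) were called higher and 1558 lower. Of 9 other enzymes reported to act on ISG15, 2 rose in rods and none fell. TRIM25, a ligase of ubiquitin and ISG15, was at 115, 19.2 and 35.0 CPM in rods over the graft, against 4.29, 3.003 and 2.16 CPM in control rods, with a fitted log2 change of 3.76 ± 0.27 (edgeR adjusted p = 3.4e-07). USP2, a deubiquitinase, rose by 0.43 ± 0.11 on the log2 scale (edgeR adjusted p = 0.015). The median log2 change of this list was 0.29, beside 0.01 over all genes.

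Of 10 genes for the interferon receptors and the transcription factor ISGF3, which drives interferon-stimulated genes, 6 rose in rods and 1 fell. IRF9, the DNA-binding part of ISGF3, was at 254, 34.3 and 86.6 CPM in rods over the graft, against 15.5, 8.11 and 7.04 CPM in control rods (log2 change 3.22 ± 0.26, edgeR adjusted p = 1.1e-06). STAT2, which binds IRF9 in ISGF3, rose by 0.88 ± 0.13 on the log2 scale. The receptor subunits IFNAR1 and IFNGR2 rose by 1.08 and 0.85 and the kinase JAK1 by 0.39, while the kinase TYK2 fell by 0.55 on the log2 scale.

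IFNAR2, the receptor subunit that USP18 binds, was at 9.29, 3.16 and 2.60 CPM in rods over the graft and 4.84, 1.41 and 1.97 CPM in control rods, and its log2 change of 0.82 ± 0.28 stood at the threshold without passing it (edgeR adjusted p = 0.0503).

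None of 13 tested ubiquitin-like modifiers other than ISG15 passed the threshold in rods, and their median log2 change was 0.27. Of 9 other activating enzymes, 1 rose and 2 fell in rods: UBA1, the main activating enzyme of ubiquitin, and UBA3, part of the NEDD8-activating enzyme, fell by 0.83 and 0.37 on the log2 scale. UBA1 was at 38.7, 13.6 and 11.001 CPM in rods over the graft and 66.9, 21.8 and 21.3 CPM in control rods, lower in 3 of 3 experiments. Of 29 other genes of the UBE2, HERC and USP families, UBE2E1, USP25 and UBE2M rose and UBE2H, USP1 and HERC3 fell, each by at most 0.46 on the log2 scale. The counts of this list and of the activating enzymes are not set apart from the shares over all genes.

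In cones TRIM25 and IRF9 were among the 3 listed genes past the threshold, with log2 changes of 1.89 and 2.13, and in Müller glia, bipolar, amacrine and horizontal cells none of these lists had a gene past it. In the whole punch 4 passed it, TRIM25, IRF9 and STAT2 among them. Over all tested genes, 2.89% were called higher in cones and 2.47% in the whole punch. The lists held 70 entries, so the counts of 3 in cones and 4 in the whole punch are not set apart from these shares.

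**Figure D5:**
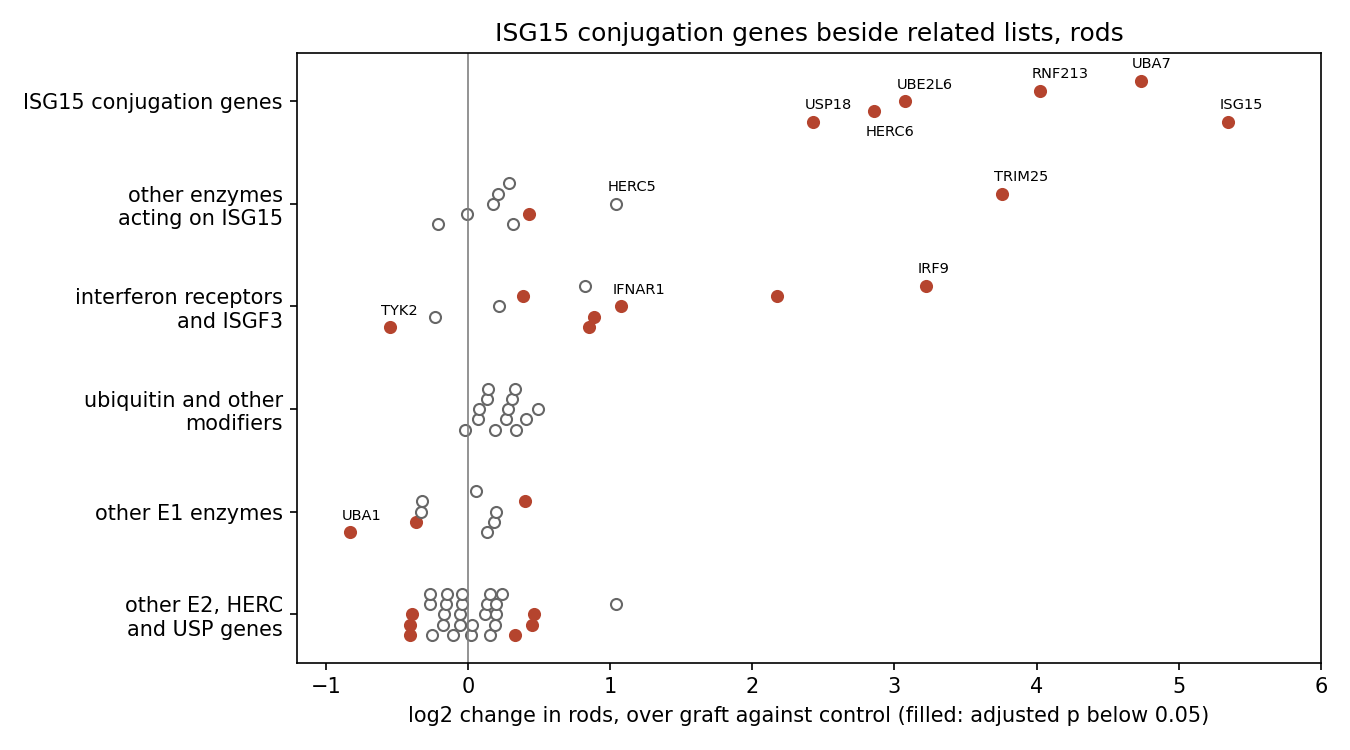
Log2 change in rods over the graft against control for the 6 genes and 5 lists of related genes, 1 point per gene, filled where the adjusted p was below 0.05. The 6 genes lie between 2.43 and 5.35, TRIM25 and IRF9 reach 3.76 and 3.22, and the points of the ubiquitin-like modifiers, at most 0.49, are all open.

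The genes whose level was most like that of ISG15 were sought over the 36 sums of 6 classes and 6 libraries, by Pearson's r of log2(CPM + 10) among 10473 genes. PSMB8, IFI35, IFI44L and IFI44 each had r = 0.93, IRF9 and TAP1 0.91, and TAP2 and IRF7 0.89. Among the 6 genes themselves, UBE2L6 came 14th of all genes (r = 0.86), RNF213 21st (0.82), USP18 164th (0.67) and HERC6 282nd (0.64), while UBA7 was below the 10 CPM needed. With log2(CPM + 1), UBE2L6 came 18th (r = 0.79), RNF213 31st (0.76), HERC6 714th (0.55) and USP18 917th (0.51), and 6 of the 8 genes named first were still among the first 8. The sums share their libraries, so these values describe likeness of level and carry no p.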

How the data were processed

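Per the labels, 3' single-cell libraries were made from trypsin-treated punches (0.25%, 10 min), and these labels also give each library's group and experiment. Raw UMI counts were deposited for every gene and barcode, made by the authors with Cell Ranger 6.0.2 (both LG5 libraries), 7.1.0 (RC726 over graft, both RC724 libraries) and 7.0.0 (RC726 control), per the file headers. The sources used here do not give the genome build, the handling of introns or the treatment of human reads. Only the punches over the graft adjoined human tissue, and the part of human RNA in the rises in rods and cones was not tested. Of the gene names, 33363 match a RefSeq symbol of UU_Cfam_GSD_1.0.

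Kept barcodes had 300 or more genes and no more than 20% mitochondrial UMIs. A barcode joined 1 of 9 classes when marker counts gave a posterior of at least 0.95, with at least 3 marker UMIs from 2 markers. A barcode was left out as mixed when its rate of another class's markers was too high. The limit was the mean rate in its own class plus 25% of the mean rate in that other class. Barcodes with 3 or more markers of a cell type outside the 9 classes were set aside. No doublet caller was used for the main sums. UMIs were summed per library and class, and a class was tested where every library held 20 barcodes. The tests were edgeR 4.0.16 quasi-likelihood fits in R 4.3.3 (filterByExpr, TMM, experiment as a block), with Benjamini-Hochberg adjustment over all genes tested and a threshold of 0.05. The SE is the log2 change divided by the square root of F. The main fits had 2 residual degrees of freedom. Their median prior degrees of freedom were 5.12 (whole punch) to 20.3 (horizontal cells). SE and p therefore rest largely on a spread shared between genes. On simulated counts for rods (16018 genes), 63.3% of log2 changes of 1 and 100% of 2 were recovered. The simulation gave all genes the same spread, with no difference between experiments in level or response. It therefore does not give the power of the fits on these data.

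The pairing comes from the design, since the punches of an experiment were cut from a common retina, and same-experiment deviations correlated at 0.69 to 0.95. Alternatives were DESeq2 1.42.0, library size only, no filter, no block, each experiment left out, clusters from scanpy 1.11.5, stricter barcodes, removal of high Scrublet scores and subtraction of free RNA. For the differences between classes, leaving out experiments and subtracting free RNA were chosen after seeing the data. The 6 genes and the lists were chosen with earlier results of these data known. All 6 genes are named in each class, listed genes where they passed the threshold, and the 8 most like ISG15. HERC5, IFNAR2 and the level of UBA1 were added after their values were seen. Some listed genes are not reported here.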

Additional observations from a re-analysis of the deposited data

Results flagged for a closer look

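The change over the graft differed between rods and another class in 24 tests of the difference itself (edgeR interaction of class and group). All values are the log2 change in rods minus the log2 change in the other class. Against Müller glia, the differences were 4.76 for ISG15, 4.37 for UBA7, 2.54 for UBE2L6, 2.36 for HERC6, 1.95 for USP18 and 3.65 for RNF213. Against cones, they were 1.58 for UBE2L6, 1.09 for HERC6, 1.05 for USP18 and 2.37 for RNF213. Against bipolar cells, they were 3.02 for ISG15, 2.05 for UBE2L6, 1.54 for HERC6, 1.31 for USP18 and 2.99 for RNF213. Against amacrine cells, they were 4.04 for ISG15, 2.09 for UBE2L6, 1.99 for HERC6, 1.73 for USP18 and 3.89 for RNF213. Against horizontal cells, they were 3.13 for ISG15, 3.15 for UBE2L6, 2.46 for HERC6 and 3.55 for RNF213. In the fits with amacrine and horizontal cells, edgeR estimated that nearly all genes vary alike, so those p-values rest on a spread shared by all genes. With the estimated free RNA subtracted, the difference passed the threshold for 6 genes against Müller glia, 0 against cones, 0 against bipolar cells, 3 against amacrine cells and 4 against horizontal cells. The 4 differences against cones and the 5 against bipolar cells were then 1.14 to 2.95 and 1.69 to 3.65, sizes that the subtraction can itself enlarge.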

How the results depend on the processing

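All 6 genes kept their rise and their call in rods under every alternative except the fit without the replicate block. With all 3 experiments, edgeR called 3203 genes in rods, 494 in cones, 243 in Müller glia, 56 in bipolar, 48 in amacrine and 3 in horizontal cells and 905 in the whole punch. With no replicate block it called 0 genes and 0 of the 6 in each of these, with 587, 196, 163, 55, 36, 19 and 343 genes at an unadjusted p under 0.05. DESeq2 called 251 genes in cones, 413 in Müller glia, 4 in amacrine cells and 2109 in the whole punch, with 2 of the 6 in cones and 0 in amacrine cells. With library size only, 22 genes were called in bipolar and 29 in amacrine cells and 3 of the 6 in cones. In Müller glia that scaling called 145 genes higher and 54 lower, against 139 and 104 with TMM. Without a filter, 1002 genes were called in cones, 1463 in Müller glia, 548 in bipolar, 142 in amacrine and 48 in horizontal cells and 2389 in the whole punch. Of the 6 genes it called 5 in Müller glia, 5 in bipolar, 2 in amacrine and 1 in horizontal cells. With cells named by clusters, 72 genes were called in Müller glia, and 3 of the 6 in cones and 0 in amacrine cells. Stricter barcodes gave 5 genes in bipolar cells and 3 of the 6 in cones, and removal of high Scrublet scores gave 321 genes and 3 of the 6 in cones and 1 of the 6 in bipolar cells. With free RNA subtracted, 0 genes were called in cones, 2 in Müller glia, 0 in bipolar and 9 in horizontal cells, and 0 of the 6 in cones and 0 in amacrine cells.

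Leaving out 1 experiment gave 1521 (without RC724) to 3640 genes in rods, 69 to 806 in cones, 93 to 891 in Müller glia, 19 to 287 in bipolar, 19 to 88 in amacrine and 4 to 38 in horizontal cells and 578 to 1143 in the whole punch. Of the 6 genes it called 2 to 5 in cones, 0 to 5 in bipolar, 0 to 3 in amacrine and 0 to 1 in horizontal cells. The genes that changed more in rods numbered 3 to 5 against amacrine and 2 to 4 against horizontal cells. With no replicate block for the class, these differences passed for 0 genes against cones, Müller glia, bipolar and horizontal cells and 1 against amacrine cells. With free RNA subtracted they passed for 0 genes against cones, 0 against bipolar and 3 against amacrine cells. The differences called before were then 1.14 to 2.95 against cones and 1.69 to 3.65 against bipolar cells, sizes that the subtraction can itself enlarge. In rods, cones, Müller glia, bipolar, amacrine and horizontal cells without a filter, and in rods without LG5 or RC726, cones or amacrine cells without RC726 and bipolar cells without RC724, edgeR took all genes to vary alike, so calls gained there rest on a shared spread.

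No called change reversed. Among values that had not passed the threshold, some turned. Over the fits without 1 experiment, the log2 change of ISG15 in Müller glia ranged from -0.10 (without LG5) to 0.89. In amacrine cells USP18 ranged from -0.084 (without LG5) to 1.49 and RNF213 from -0.50 (without LG5) to 1.05. In horizontal cells UBE2L6 ranged from -0.40 to 0.16 (without RC724) and RNF213 from -0.27 (without LG5) to 0.99. The UBA7 difference ranged from -1.36 to 0.30 (without LG5) between rods and cones and from -0.48 (without LG5) to 3.46 between rods and bipolar cells. With free RNA subtracted, HERC6 (-0.098) and RNF213 (-0.034) turned in Müller glia, HERC6 (-0.59) and RNF213 (-0.28) in amacrine cells and RNF213 in horizontal cells (-0.10), as did the difference of ISG15 (-3.71) between rods and cones. The UBA7 difference (2.98) could not be estimated there (SE 11727), so it shows no turn. UBE2L6 in horizontal cells turned with cells named by clusters (0.11). The cause was not tested in any of these. Of the differences in shares of barcodes, 58 moved by less than 1 SD after thinning and 14 by more. Depth limits UBA7 most, with 1 to 2 UMIs in control rods and none in control cones.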
